A study of Drosophila melanogaster with 24 samples.

Results

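The regions described here are the places in the Drosophila melanogaster genome that the transcription factor E93 occupied in the pupal wing, followed into wings that lack E93. They are the 8477 peaks of an E93 ChIP-seq list made from wings at 24 h after puparium formation (APF), out of 183658 peaks in the 7 lists used. An E93 peak was counted as accessible in the mutant when it overlapped, by 1 bp or more, a peak of the E93 mutant FAIRE-seq list of a given stage. The comparison set was the wild-type FAIRE-seq list at 24 h, whose 29731 peaks divide into 7655 that overlapped an E93 peak (E93-bound) and 22076 that did not (unbound).

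FAIRE-seq was done on E93 mutant wings of the strain E93-4/Df(3R)93FX2, which carry 1 E93 allele over a deficiency of arm 3R, and on wild-type wings of the strain w1118/y,w, hs-FLP; + ; +. Both were sampled as larval wing discs (labelled 3LW and called L3 here) and as wings at 24 h and 44 h APF, with 2 replicates a stage in the mutant and 3 in the wild type. ChIP-seq used an antibody against GFP on wings at 24 h APF of the strain yw/+; + ; Mi{MIC}Eip93F/+, in 2 replicates, in which 1 copy of the gene carries the GFSTF tag and the other is untagged. The FAIRE-seq wings came from females and the ChIP-seq wings from both sexes, with many wings pooled in every sample.

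E93, encoded by Eip93F, is an ecdysone-induced transcription factor with a Pipsqueak-type DNA-binding domain, and it is known as a specifier of pupal and adult fates in insects. In the pupal wing it is known to act on when enhancers open and close, with closing of early enhancers and opening of later ones. FAIRE-seq recovers DNA that is not bound in nucleosomes, so a peak marks a stretch of open chromatin such as a promoter or an active enhancer. ChIP-seq recovers DNA bound by the tagged protein.

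Each condition was represented by 1 list called on pooled replicates, so no spread between replicates could be set beside any share, and no test across samples was made. Intervals in brackets are 95% intervals that cover counting error only, exact (Clopper-Pearson) for shares. The depth recovered from the heights in each list was 5.44, 4.67 and 2.79 M reads for the mutant at L3, 24 h and 44 h, against 9.57, 17.5 and 14.5 M for the wild type, and 20.6 M for the ChIP-seq. The mutant lists held 28216, 26239 and 22786 peaks, and the wild-type lists 39525, 29731 and 28684. The mutant lists were thus made from fewer reads than the wild-type list of the same stage, and a peak missing from a mutant list was not detectable at that depth rather than shown to be closed. The labels give 3LW for the mutant larval list, but its peaks are named after 0 h APF, so its values are given with that doubt. The wild-type L3 list is the longest of all, yet its peaks are named as a selection of the top ones, so what was selected is not known. The lists' coordinates are given on dm3, the build in the submitters' processing notes.

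Most E93-occupied regions overlapped an open region in wings without E93, by the rule of 1 bp. At 24 h, the stage at which E93 occupancy was measured, 7310 of the 8477 E93 peaks (86.2%, 85.5 to 87.0%) overlapped a peak of the mutant list, against 8117 (95.8%) for the wild-type list. Of all wild-type 24 h peaks, 65.4% were found in the mutant 24 h list, and of those without an E93 peak 57.2%. At 44 h, 6677 E93 peaks (78.8%, 77.9 to 79.6%) were found in the mutant list and 6430 (75.9%, 74.9 to 76.8%) in the wild-type list, beside 59% of all wild-type 24 h peaks and 50.9% of the unbound ones in the mutant 44 h list. At L3, 6516 (76.9%, 76.0 to 77.8%) were found in the mutant list and 6839 (80.7%) in the wild-type list, beside 62.4% of all and 56.4% of the unbound wild-type 24 h peaks in the mutant L3 list. When 50% of both peaks had to be shared, the mutant shares were 39.6% at L3, 52.3% at 24 h and 46.4% at 44 h. By the rule of 1 bp, at L3 and 24 h the mutant share was below the wild-type share, while at 44 h it was above it although the mutant 44 h list was the shortest and shallowest.

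Of the 1167 E93 peaks missing from the mutant at 24 h, 943 were in the wild-type 24 h list. This was a lower share than the 95.8% of all 8477 E93 peaks in that list. Of the 8117 E93 peaks with a wild-type 24 h peak, 88.4% were found in the mutant at 24 h and 81.2% at 44 h. Of the 360 E93 peaks without a wild-type 24 h peak, 136 (37.8%) were found in the mutant at 24 h and 24.7% at 44 h. These 360 regions, bound by the tagged protein but not called open in the wild type, therefore had the lowest shares in both pupal mutant lists.

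Over the 3 mutant lists, 5654 E93 peaks (66.7%) were found at every stage, and 701 (8.27%) at none. Of those 701, 528 were in the wild-type 24 h list, again a lower share than the 95.8% of all E93 peaks. In the wild type, 5508 E93 peaks were found at every stage and 184 at none. The other patterns over L3, 24 h and 44 h also differed in number between the genotypes. E93 peaks listed at L3 and 24 h but not at 44 h numbered 637 in the mutant and 1200 in the wild type, and those listed at 24 h alone 327 in the mutant and 580 in the wild type. E93 peaks listed at 24 h and 44 h but not at L3 numbered 692 in the mutant and 829 in the wild type, and those listed at 44 h alone 241 in the mutant and 45 in the wild type. The mutant lists were the shallower, and unbound peaks were not sorted into these patterns. Whether the differences in number are particular to E93 peaks was therefore not tested. The wild-type 24 h peaks that were also in the mutant 24 h list numbered 6812 E93-bound and 12637 unbound. Of these, 11.5% of bound and 26.7% of unbound peaks were missing from the mutant 44 h list. Of all wild-type 24 h peaks, 20.4% of 7655 bound and 34.6% of 22076 unbound ones were missing from the wild-type 44 h list. The mutant shares thus rest on peaks listed at 24 h in both genotypes and are not like for like with the wild-type shares. Over all wild-type 24 h peaks, the mutant 44 h list held 82.2% of bound and 50.9% of unbound ones. The wild-type 44 h list held 79.6% of bound and 65.4% of unbound ones. All 6 FAIRE-seq lists held 4940 E93 peaks (58.3%), and 141 were in none of them.

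Set side by side at each stage, the E93 peaks present in 1 genotype alone were few at L3 and 24 h on the mutant side. At 24 h, 7174 E93 peaks were in both lists, 136 in the mutant list alone, 943 in the wild-type list alone and 224 in neither. At L3 the mutant list alone held 159 and the wild-type list alone 482. At 44 h the order was turned round, with 783 E93 peaks in the mutant list alone and 536 in the wild-type list alone, beside 5894 in both and 1264 in neither. Of the 2047 E93 peaks absent from the wild-type 44 h list, 38.3% (36.1 to 40.4%) were found in the mutant at 44 h. Of the 1638 absent from the wild-type L3 list, 9.71% (8.32 to 11.2%) were found in the mutant at L3. These wild-type lists differed in length, with 28684 peaks at 44 h and 39525 at L3. Unbound wild-type 24 h peaks absent from the wild-type 44 h list were found in the mutant one in 1345 of 7634 cases (17.6%). Of the 14442 present in it, 9897 (68.5%) were found, so more unbound peaks were in the wild-type list alone. No such share was computed for unbound peaks at L3.

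Accessibility in the mutant followed the height of the E93 signal. The 8477 E93 peaks were ranked by ChIP pileup, the number of overlapping extended reads at the summit as scaled by the authors, and cut into 10 equal classes, with class 1 the highest. Class 1 had a median pileup of 78.4 and a median length of 601.5 bp, and class 10 a median pileup of 26.6 and a median length of 168 bp. Classes of higher pileup thus also held longer peaks, which have more room to overlap another peak.

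In the mutant 24 h list, 98.5% (97.4 to 99.2%) of class 1 was found, then 96.1%, 93.9%, 90.4% and 85.1% in classes 2 to 5. The share went on down through 84.9% and 83.1% in classes 6 and 7 to 77.4% in class 9 and 71.7% (68.5 to 74.7%) in class 10. In the wild-type 24 h list the same classes ran from 99.9% in class 1 to 87.5% in class 10. The shortfall of the mutant list against the wild-type list was therefore spread unevenly, with class 1 close to the wild type and class 10 well below it. The mutant list was the shallower and the class 10 peaks were short, and the part of depth and length in this was not tested. In the mutant 44 h list the shares were 93.4% in class 1, 82.6% in class 4, 72.0% in class 7 and 67.7% in class 10. In the wild-type 44 h list they were 84.8% in class 1, 78.9% in class 4, 72.9% in class 7 and 67.9% in class 10. At 44 h the most strongly occupied regions were found more often in the mutant list than in the wild-type list, while in class 10 the genotypes differed by less than their counting intervals. In the mutant L3 list, before the stage of occupancy, class 1 already stood at 92.1% and class 10 at 66.4%, so the slope with E93 pileup was present in every list.

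**Figure D1:**
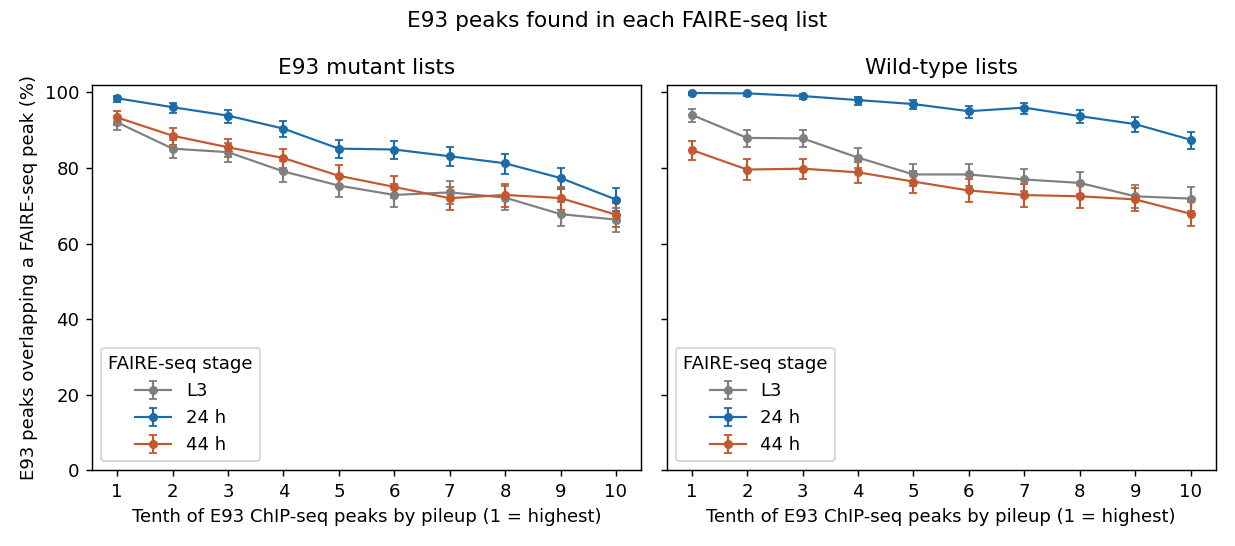
Share of E93 ChIP-seq peaks (%) that overlapped a FAIRE-seq peak, by class of ChIP pileup (1 is the highest of 10 equal classes), in the 3 E93 mutant lists (left) and the 3 wild-type lists (right). Points are shares at L3, 24 h and 44 h and bars are exact 95% counting intervals. At 44 h class 1 stands at 93.4% in the mutant and 84.8% in the wild type.

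E93-bound regions were also among the most open regions of the wild-type wing, and open regions of high signal are found again more often in any list. The 29731 wild-type 24 h peaks were therefore ranked by their own FAIRE-seq pileup, cut into 10 equal classes of about 2973 peaks, and bound and unbound peaks compared within each class. The unbound share was then weighted to the class sizes of the bound peaks. Class 1, with FAIRE-seq pileups of 104 to 137, held 2046 bound and 928 unbound peaks. Class 10, with pileups of 20.8 to 28.9, held 87 bound and 2886 unbound peaks.

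At equal rank, E93-bound regions were found more often than unbound ones in the mutant lists, and also in the wild-type L3 list given below. In the mutant 24 h list 89.0% of bound peaks were found, against 80.3% of unbound peaks at matched rank and 57.2% without matching, a matched difference of 8.66 points (7.85 to 9.48). In the mutant 44 h list the shares were 82.2% for bound peaks, against 76.4% for unbound peaks at matched rank, a difference of 5.84 points (4.88 to 6.79). In the mutant L3 list they were 79.9% for bound peaks and 76.4% for unbound peaks, a difference of 3.54 points (2.49 to 4.59). Most of the unmatched contrast thus went with rank, and a smaller part remained at every stage.

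The remaining difference lay in regions of middle and low wild-type signal. At 24 h it was -0.36 points in class 1 and 0.27 in class 2, where nearly every peak was found, then 7.84 points in class 3 and 16.3 in class 4. In class 6, 75.9% of 461 bound peaks were found in the mutant 24 h list, against 52.1% of 2512 unbound peaks. In class 10 the shares were 64.4% (53.4 to 74.3%) of 87 bound peaks and 35.3% (33.5 to 37.0%) of 2886 unbound peaks. Weakly open regions of the wild-type wing were thus found again in the mutant far more often when they carried an E93 peak.

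**Figure D2:**
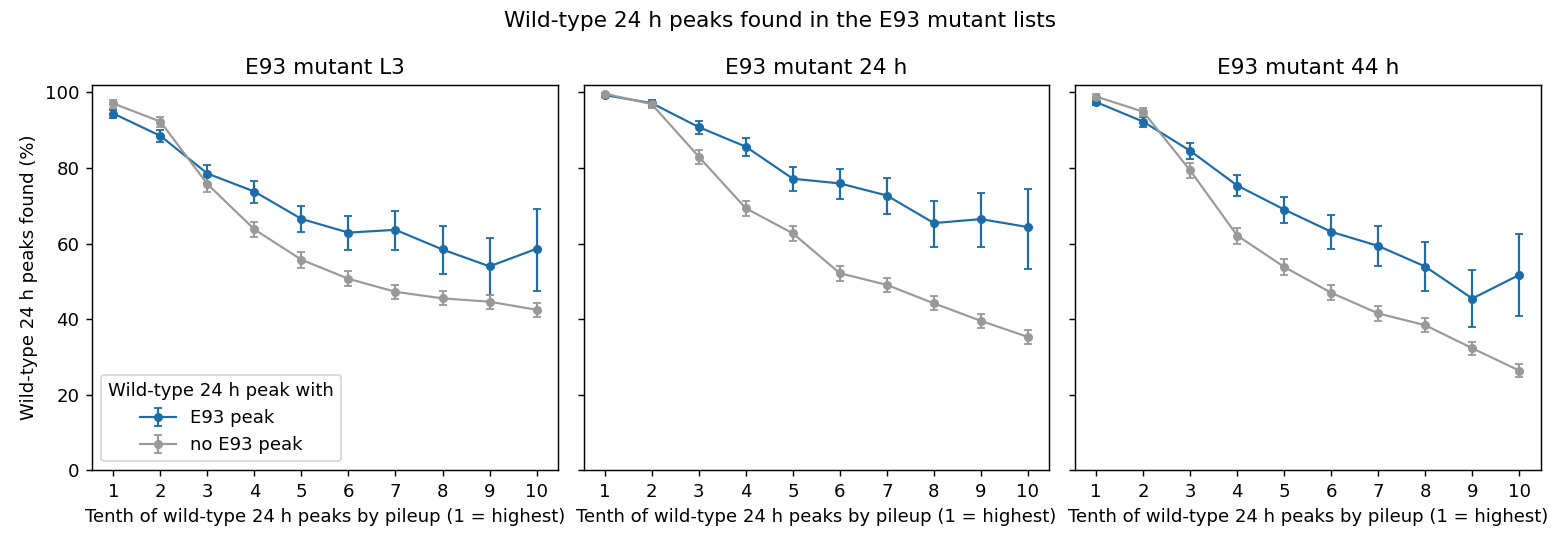
Share of wild-type 24 h FAIRE-seq peaks (%) found in the E93 mutant list at L3, 24 h and 44 h, by class of wild-type pileup (1 is the highest of 10), for peaks with an E93 peak (blue) and without (grey). Bars are exact 95% counting intervals. At 24 h the curves meet in classes 1 and 2 and part from class 3 on, while at L3 and 44 h the bound peaks lie below the unbound ones in classes 1 and 2, by -2.66 and -3.78 points at L3 and by -1.46 and -2.63 points at 44 h.

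Peak length differed with occupancy at matched rank: in class 1 bound peaks had a median of 719 bp and unbound ones 454 bp, and in class 10 bound peaks had a median of 189 bp and unbound ones 165 bp. When peaks were matched by rank and also by 3 classes of length, the differences were 4.67 points at 24 h and 1.94 points at 44 h. With 10 length classes, a choice made after seeing the values, they were 4.03 points at 24 h and 0.996 at 44 h. When 50% of both peaks had to be shared, the 24 h difference was 4.12 points and the 44 h difference turned to -2.0 points. The excess of bound regions in the mutant at 44 h thus depended on how overlap and length were treated, while at 24 h it stayed above 0 in every alternative tried.

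A second set of comparisons, added after the values above had been seen, asked what the same regions did in the wild type. In the wild-type L3 list 84.1% of E93-bound 24 h peaks were found, against 81.4% of unbound peaks at matched rank. This difference of 2.70 points (1.75 to 3.66) had the direction of the 3.54 points in the mutant L3 list. In the wild-type 44 h list 79.6% of E93-bound 24 h peaks were found, against 84.8% of unbound peaks at matched rank, a difference of -5.24 points (-6.25 to -4.22). In wild-type wings, E93-bound regions were thus found less often at 44 h than unbound regions of equal rank, the opposite direction to the mutant at the same age. By class of wild-type pileup, the mutant difference was -1.46 points (-2.42 to -0.51) in class 1 and -2.63 (-4.39 to -0.87) in class 2, then between 5.19 and 25.4 points in classes 3 to 10. The wild-type difference was -4.37, -7.31, -10.3, -8.66 and -4.23 points in classes 1 to 5, and between -0.73 and 10.7 points in classes 6 to 10. The mutant difference was above the wild-type one in all 10 classes, but in classes 9 and 10 their counting intervals overlapped. In class 9 these were 5.61 to 20.7 points in the mutant and 1.59 to 16.7 in the wild type. In class 10 they were 14.7 to 36.0 and 0.07 to 21.4 points.

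**Figure D3:**
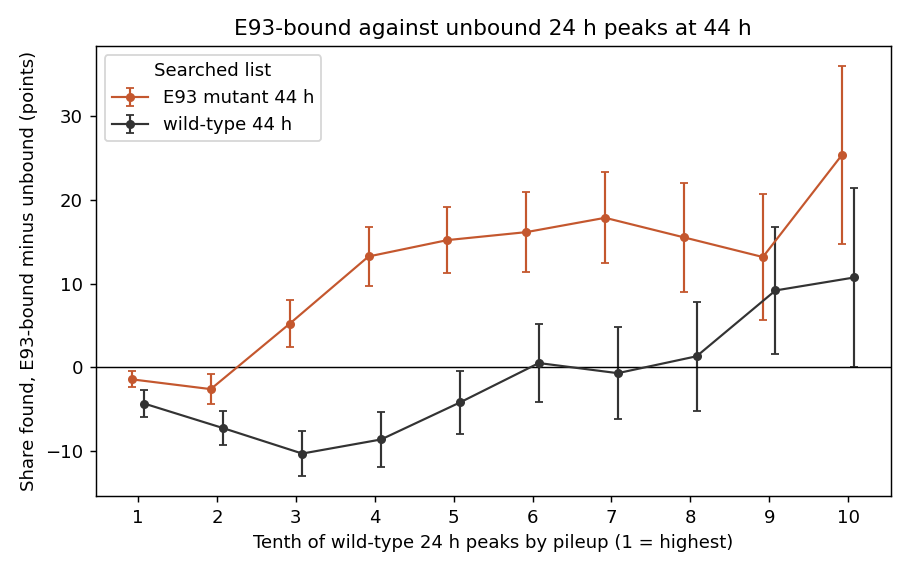
Share of wild-type 24 h peaks found at 44 h, E93-bound minus unbound (percentage points), by class of wild-type 24 h pileup (1 is the highest of 10), in the E93 mutant 44 h list (orange) and the wild-type 44 h list (black). Bars are 95% counting intervals, and the orange point lies above the black one in all 10 classes, with 13.2 against -8.66 points in class 4.

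The gap between the genotypes put these values into 1 number. Among E93-bound 24 h peaks, the share found at 44 h was 2.60 points higher in the mutant list than in the wild-type list. Among unbound peaks at matched rank it differed by -8.47 points, lower in the mutant list. The difference between those differences was 11.1 points (10.0 to 12.1) at 44 h. At L3, before E93 occupancy was measured, the same quantity was 0.84 points (0.090 to 1.59), with bound peaks -4.23 points and unbound peaks -5.07 points in the mutant list against the wild-type list. The 44 h value was between 6.02 and 15.5 points over the alternatives tried and the L3 value between -2.22 and 1.69. The recovered depth was 2.79 M reads in the mutant against 14.5 M in the wild type at 44 h, and 5.44 M against 9.57 M at L3. The genotypes thus differed more in depth at 44 h than at L3. Whether depth acts equally on bound and unbound peaks was not tested. Genotype, strain background, depth and the number of replicates pooled cannot be told apart with 1 list per condition.

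Regions listed in the wild type at 24 h but not at 44 h were looked at by themselves, although the 44 h list was made from fewer reads and an absence from it does not show closing. Of the wild-type 24 h peaks absent from the wild-type 44 h list, 21.9% were found in the mutant 44 h list, and of those present 75.6%. Among the absent ones, 665 of 1562 E93-bound peaks (42.6%) were found in the mutant at 44 h, against 1345 of 7634 unbound peaks (17.6%), or 32.8% at matched rank, a difference of 9.74 points (6.40 to 13.1). Among those present, 92.4% of bound peaks were found, against 84.9% of unbound peaks at matched rank, a difference of 7.43 points. When 50% of both peaks had to be shared, the first of these differences turned to -3.26 points.

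Regions listed in the wild type at 24 h but not at L3, the shallowest wild-type list, gave a like contrast at 24 h. Of the wild-type 24 h peaks absent from the wild-type L3 list, 25% were found in the mutant 24 h list, and of those present 82.1%. Among the absent ones, 602 of 1214 E93-bound peaks (49.6%) were found in the mutant at 24 h, against 35.4% of unbound peaks at matched rank, a difference of 14.2 points (10.9 to 17.4). Among those also listed at L3, 96.4% of bound and 90.9% of unbound peaks at matched rank were found. These contrasts were not repeated with a stricter overlap or with matching by length. About as many E93-bound regions without a wild-type L3 peak were therefore missing from the mutant 24 h list as were found in it, whereas those with one were almost all found.

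ChIP pileup within bound regions was compared at similar wild-type openness. In wild-type classes 1 and 2, the ChIP list was cut into 3 equal parts by pileup, and E93 peaks of its highest part were found in the mutant 44 h list in 94.0% of 1917 cases, against 91.2% of 876 for the lowest part. In the wild-type 44 h list the order was the other way, with 86.2% for the highest and 89.7% for the lowest. In classes 3 and 4 the mutant 44 h shares were 81.5% for the highest and 77.5% for the lowest, and the wild-type 44 h shares 74.4% for the highest and 77.1% for the lowest. In these highly open regions, stronger E93 occupancy thus went with a higher share in the mutant 44 h list. In the wild-type 44 h list it went with a lower share. The exact counting intervals overlapped in both. At L3 the highest part also had the higher share, in both genotypes. In classes 1 and 2 it was 91.1% against 86.6% in the mutant and 93.4% against 89.3% in the wild type. In classes 3 and 4 it was 79.2% against 72.0% in the mutant and 84.1% against 76.3% in the wild type. E93 peaks of higher pileup were also longer, and the part of length in this was not tested. In classes 5 and 6 the mutant 44 h shares were 67.0% for the highest and 66.0% for the lowest, and the wild-type 44 h shares 62.0% for the highest and 69.0% for the lowest. In classes 7 to 10, with 63 E93 peaks in the highest part, the wild-type order was not the same, with 61.9% for the highest and 51.3% for the lowest. At 24 h in the mutant the shares were 98.6% for the highest and 93.3% for the lowest in classes 1 and 2, and 93.4% for the highest and 83.0% for the lowest in classes 3 and 4.

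Wild-type 24 h peaks that held more than 1 E93 peak were nearly always found in the mutant. Of 665 such peaks 97.6% were found in the mutant 24 h list, against 88.2% of 6990 peaks with 1 E93 peak and 57.2% of those with none. The peaks with several E93 peaks had a median length of 956 bp, against 476 bp for those with 1 and 229 bp for those with none, so length moved with this order and its part in it was not tested.

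The E93 peaks were sorted by their state in the mutant pupal wing. Found at both 24 h and 44 h were 6346 (74.9%), at 24 h but not 44 h 964 (11.4%), at 44 h but not 24 h 331 (3.90%), and at neither 836 (9.86%, 9.24 to 10.5%). The regions found at neither stage had a median ChIP pileup of 33.0 and a median length of 198 bp, against 40.4 and 311 bp for those found at both. They were also less open in the wild type, with a median percentile of 54.3 in the wild-type 24 h list against 84.3. The percentile is a peak's rank by pileup in its list, counted from the lowest, as a share of the list's peaks. Peaks of equal pileup were given their mean rank. Of the 836, 76.2% were in the wild-type 24 h list, 35.9% in the wild-type 44 h list and 20.6% in the wild-type L3 list. These were below the shares of all E93 peaks in the same lists, 95.8%, 75.9% and 80.7%. Only 7 of the 836 fell in ChIP class 1 and 170 in class 10.

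The regions found in the mutant at 24 h only and at 44 h only differed in their wild-type stages. Of the 964 found at 24 h only, 73.2% were in the wild-type L3 list and 24.5% in the wild-type 44 h list. Of the 331 found at 44 h only, 34.7% were in the wild-type L3 list and 84.6% in the wild-type 44 h list. Nearly all of both sets were in the wild-type 24 h list, with 92.5% of those found at 24 h only and 92.4% of those found at 44 h only. Of all E93 peaks, 80.7% were in the wild-type L3 list, 95.8% in that of 24 h and 75.9% in that of 44 h. Unbound peaks were not sorted in this way, so whether the contrast is particular to E93 peaks was not tested. Of the 331, 261 (78.9%) were in both pupal wild-type lists, and 167 (50.5%) were in both and not in the wild-type L3 list.

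The 6 E93 peaks of largest ChIP pileup were all open in the mutant at 24 h. The highest, at chr2L:7422385-7422846 with a pileup of 119, stood at percentiles 99.8, 99.0 and 98.6 in the mutant lists at L3, 24 h and 44 h, against 99.9, 98.2 and 95.8 in the wild-type lists. The next, at chr2R:2434371-2435436 with a pileup of 117, stood at 89.3, 93.1 and 84.3 in the mutant lists, against 94.2, 89.7 and 78.2 in the wild-type lists. Both were thus listed at every stage in both genotypes.

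All 6 ranked lower at 44 h than at 24 h, or were missing there, in both genotypes. The peak at chr3L:5626062-5626838, with a pileup of 116, was at percentiles 84.5 and 89.8 in the mutant at L3 and 24 h, against 99.3 and 99.2 in the wild type. Its wild-type percentiles belong to summits 1017 and 1082 bp from the E93 summit, against 72 and 146 bp in the mutant, so they are not of the same point. At 44 h it was in neither genotype's list, the nearest peak being 265 bp away in the mutant and 174 bp away in the wild type. The peak at chr2L:428931-430658, with a pileup of 115, was at percentiles 94.4, 92.9 and 55.0 in the mutant and at 96.5 and 98.2 in the wild type, where no 44 h peak overlapped it. This was the 1 region of the 6 found at 44 h in the mutant list alone. The peak at chr3R:26096475-26097438, with a pileup of 115, was at percentiles 96.4, 94.3 and 44.8 in the mutant, against 98.5, 92.8 and 42.8 in the wild type, whose 24 h summit lay 713 bp from the E93 summit. The peak at chr2R:2418436-2419159, with a pileup of 114, was at 95.6, 98.8 and 67.6 in the mutant, against 98.2, 96.8 and 60.2 in the wild type. The decline in rank between 24 h and 44 h at both was of like size with and without E93.

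The strongest E93 peaks missing from both pupal mutant lists had lower pileups, between 71.0 and 79.9 for the first 6. The first, at chr3L:2533332-2533843 with a pileup of 79.9, was at percentile 85.5 in the wild-type 24 h list. It was found at L3 at percentile 24.6 in the mutant and 42.8 in the wild type, and the nearest mutant 24 h peak was 165 bp away. The second, at chr2L:7701574-7701839 with a pileup of 79.4, was at percentile 39.4 in the wild-type 24 h list and at 59.7 in the mutant L3 list, with no wild-type L3 peak. These 2 were the ones of the 6 that had a mutant L3 peak.

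The other 4 were absent from all 3 mutant lists. The peak at chr2R:3265662-3266143 (pileup 74.5) was at percentile 66.9 and the peak at chr3R:13020694-13021070 (pileup 76.9) at percentile 21.7 of the wild-type 24 h list, and neither was in another wild-type list. The peak at chr3R:27548573-27549007 (pileup 74.5) was at percentiles 77.7 and 13.7 in the wild type at 24 h and 44 h, with mutant peaks 221 bp away at 24 h and 178 bp away at 44 h. The peak at chr3R:19902355-19902598 (pileup 71.0) was at percentiles 45.2 and 50.3 in the wild type at 24 h and 44 h. Its nearest mutant 24 h peak lay 16464 bp away and its nearest mutant 44 h peak 13767 bp away, so this was a region listed in the wild type at both pupal stages with no peak within 10 kb in either pupal mutant list, and its nearest mutant L3 peak lay 5497 bp away. On the X the strongest such E93 peak was at chrX:4851786-4852147 with a pileup of 60.6.

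Among E93 peaks found in the mutant at 44 h but not at 24 h, 5 of the strongest 6 were in the wild-type 44 h list. The peak at chr3L:2544695-2545226, with a pileup of 68.5, stood at percentile 39.5 in the mutant at 44 h, against 91.7 at 24 h and 88.0 at 44 h in the wild type, and was in no L3 list. The peak at chr3L:14345098-14345551, with a pileup of 69.5, stood at percentile 59.7 in the mutant at 44 h, against 81.8 and 88.8 in the wild type at 24 h and 44 h. Both regions were listed in the wild type from 24 h on and in the mutant at 44 h alone, at lower rank. The 1 of the 6 that was absent from the wild-type 44 h list, at chr3L:16633006-16633482 with the largest pileup of them, 86.8, was at percentile 55.0 in the mutant at 44 h and at 92.3 in the wild type at 24 h. The remaining 3, at chr2R:19479872-19480239, chr3R:14290518-14290942 and chr3L:20653879-20654286, had pileups of 68.0 to 71.0 and mutant 44 h percentiles of 14.8 to 39.5, against 61.7 to 71.9 in the wild type at 44 h.

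Among E93 peaks found in the mutant at 24 h but not at 44 h, 5 of the strongest 6 were also absent from the wild-type 44 h list. The first was the region at chr3L:5626062-5626838 given above. The second, at chr2L:8905854-8906374 with a pileup of 112, was at percentiles 88.5 and 92.9 in the mutant at L3 and 24 h, against 68.9 and 91.1 in the wild type. Its summits lay 454 and 461 bp from the E93 summit in the mutant and 14 and 76 bp in the wild type. The peak at chr3L:2834510-2835072, with a pileup of 86.8, was at 96.9 and 91.8 in the mutant, against 96.7 and 80.4 in the wild type. These regions were open at high rank at L3 and 24 h and were listed at 44 h in neither genotype. The 1 exception, at chr2L:3154999-3155644 with a pileup of 99.6, was at percentile 51.5 in the wild-type 44 h list, and the nearest mutant 44 h peak was 114 bp away. The peaks at chr3L:8816786-8817157 (pileup 90.7) and chr2R:18292579-18292934 (pileup 92.7) stood at percentiles 90.1 and 47.7 in the mutant 24 h list, against 78.0 and 60.6 in the wild-type 24 h list.

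The share found varied little between chromosome arms. In the mutant 24 h list it was 88.5% of 1074 E93 peaks on the X, 87.4% of 1483 on 2L, 85.6% of 1815 on 2R, 85.5% of 2110 on 3R and 85.3% of 1986 on 3L. In the mutant 44 h list it was 82.7% on the X, 79.7% on 2R, 78.0% on 2L, 78.0% on 3R and 77.0% on 3L. Arm 3R, which carries the E93 locus and the deficiency, was thus close to the lowest arm at 24 h and level with 2L at 44 h, within counting error of its neighbours in this order. The highest and lowest arms, X and 3L, differed by 3.20 points at 24 h and 5.64 points at 44 h. All 9 E93 peaks on chromosome 4 were found in every mutant list and every wild-type list, a share of 100% with a lower bound of 66.4%. In the wild-type 44 h list the shares were 78.3% on the X, 77.2% on 2R, 76.7% on 3R, 74.0% on 2L and 73.7% on 3L, all below the mutant share of the same arm. Unbound wild-type 24 h peaks were also found most often on the X. In the mutant 24 h list it was 60.9% there, against 54.9% to 57.5% on the other large arms. In the mutant 44 h list it was 55.6%, against 48.3% to 50.6%. On chromosome 4, 44.2% of 104 unbound peaks were found in the mutant at 24 h and 26.0% at 44 h.

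**Figure D4:**
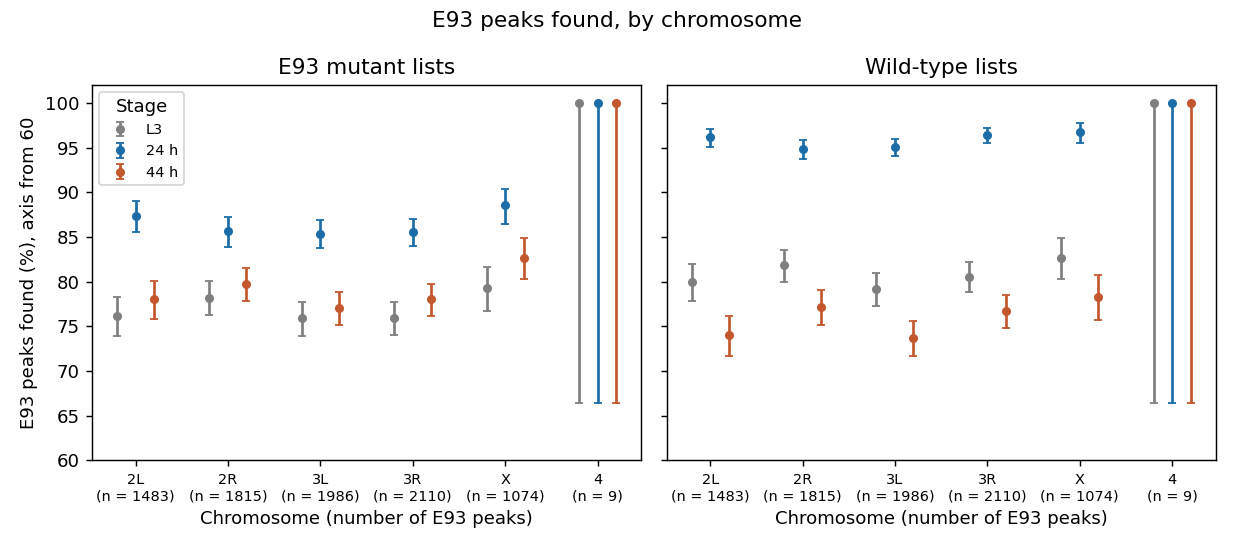
Share of E93 ChIP-seq peaks (%) found in the E93 mutant lists (left) and the wild-type lists (right), by chromosome and stage, with exact 95% counting intervals. The axis starts at 60%. At 24 h the mutant shares on the large arms lie between 85.3% and 88.5%.

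E93 occupancy itself was uneven. Of wild-type 24 h peaks, 29.2% carried an E93 peak on 3L, 28.3% on 2R, 26.3% on 3R, 25.9% on 2L and 18.4% on the X, and on chromosome 4 it was 9 of 113 (7.96%). The matched difference between bound and unbound peaks in the mutant 24 h list was 10.3 points on 3R, 9.99 on 2L, 8.49 on 2R, 8.24 on 3L and 5.29 on the X. In the mutant 44 h list it was 7.97 points on 2L, 6.75 on 3R, 5.94 on 2R, 4.39 on 3L and 3.86 on the X. The X, the arm with the fewest E93-bound open regions among the large arms, also had the smallest matched difference at both stages. The FAIRE-seq wings were female and the ChIP-seq wings of both sexes, and the part of the single male X in the X values was not tested.

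Of 122 windows of 1 Mb, 113 held at least 20 E93 peaks, and in these the share found in the mutant ranged from 76.4% to 96.2% at 24 h (median 86.8%) and from 63.0% to 97.0% at 44 h (median 79.2%). Lower shares stood in windows with few E93 peaks: 9 of 16 were found at 24 h and 3 at 44 h in the first window of 2R, 4 of 9 at 24 h and 3 at 44 h in the last of 2L, and 0 of 2 at either stage in the last of 3L. The longest run of neighbouring E93 peaks missing from the mutant 24 h list was 6 peaks over 52.7 kb at chr3R:17554551-17607233, of which 5 were in the wild-type 24 h list, 1 in the mutant 44 h list and 2 in the mutant L3 list. On 2L, 2R, 3L and X the longest runs were 5 peaks each. The run on 3L at chr3L:9814656-9846531 and the run on the X at chrX:4856124-4897736 had all 5 peaks in the wild-type 24 h list and 1 in the mutant 44 h list. The run on 2L, by contrast, had 1 of its 5 peaks in the wild-type 24 h list, and the run on 2R none.

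Within open regions, E93 summits lay close to the point of highest accessibility, and somewhat closer to the mutant summit than to the wild-type one. Over the 7310 E93 peaks that overlapped a mutant 24 h peak, the median distance to the nearest mutant summit was 80 bp (78 to 83 bp), with quartiles of 32 and 170 bp. Over the 8117 that overlapped a wild-type 24 h peak it was 90 bp (87 to 93 bp), with quartiles of 36 and 185 bp. Over the 7174 E93 peaks in both lists the medians were 80 bp to the mutant summit and 93 bp to the wild-type summit. Of these, 3884 (54.1%) were nearer to the mutant summit, 3191 (44.5%) nearer to the wild-type summit and 99 equally near. At L3 the median was 84 bp in both genotypes, and at 44 h it was 83 bp in the mutant and 92 bp in the wild type.

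**Figure D5:**
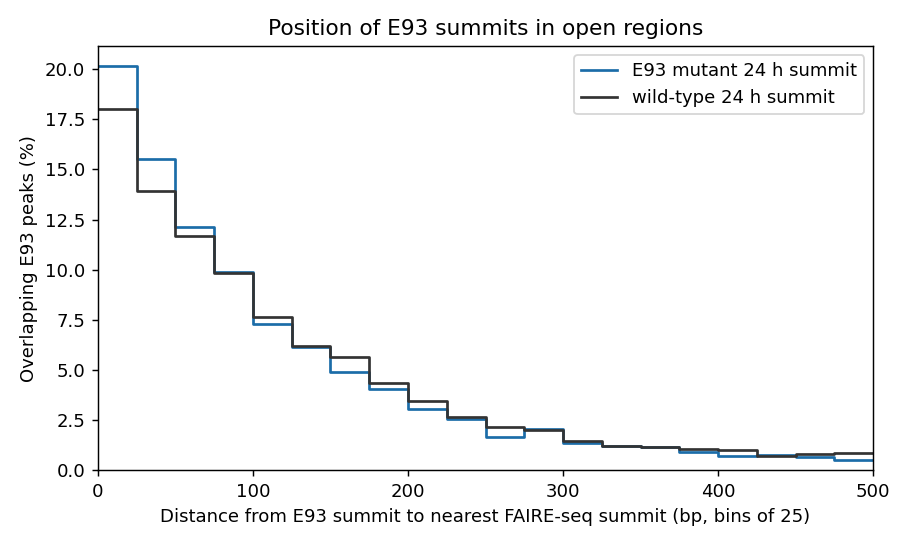
Distance (bp, bins of 25) from the E93 summit to the nearest FAIRE-seq summit at 24 h APF, as a share (%) of the E93 peaks that overlapped a peak of the E93 mutant list (blue) or the wild-type list (black). Medians are 80 bp in the mutant and 90 bp in the wild type, and distances of 500 bp and more are not drawn.

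For E93 peaks that overlapped no mutant peak, the median distance to the nearest mutant summit was 791 bp at 24 h and 913.5 bp at 44 h. Measured from edge to edge, the median was 463 bp at 24 h and 584.5 bp at 44 h, and a mutant peak lay within 250 bp of 358 of the 1167 (30.7%) at 24 h and of 420 of the 1800 (23.3%) at 44 h. The share found in the mutant at 24 h was 87.2% for E93 summits within 25 bp of the wild-type summit, 84.0% from 26 to 50 bp, 87.5% from 51 to 100 bp, 90.1% from 101 to 250 bp and 79.8% beyond 250 bp. In the last class, which had the lowest share, 80.1% of the E93 peaks overlapped a wild-type peak.

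Where a region was listed in both genotypes, its rank was compared as its percentile in the mutant list minus that in the wild-type 24 h list. At 24 h the mean of the class medians, weighted to bound peaks, was 3.81 percentile points for 6812 bound peaks and -4.52 for unbound peaks, a difference of 8.32 (7.65 to 9.00). At 44 h it was -3.91 for 6292 bound peaks and -6.50 for unbound peaks, a difference of 2.59 (1.71 to 3.47). Among regions listed in both genotypes, which leaves out those missing from the mutant, E93-bound regions thus ranked higher in the mutant lists than unbound regions of the same wild-type rank at both pupal stages on this weighted measure. At 44 h the class of highest wild-type pileup went the other way. Its median change was -5.98 (-6.88 to -5.23) for 1994 bound peaks and -3.89 (-4.55 to -3.09) for 918 unbound peaks. Medians over all classes, without matching by rank, also went the other way. They were -0.18 for bound and 0.44 for unbound peaks at 24 h. At 44 h they were -5.17 for bound and -2.10 for unbound peaks. Bound peaks were longer at matched rank, and this comparison of rank was not matched by length. The distance from the wild-type 24 h summit to the mutant summit of the same region was taken as the same weighted mean of class medians. It was 37.6 bp for bound and 21.0 bp for unbound peaks in the 24 h list. In the 44 h list it was 38.5 bp for bound and 20.9 bp for unbound peaks, across a change of stage as well as genotype. Medians without matching were 37 bp for bound and 27 bp for unbound peaks at 24 h, and 38 and 27 bp at 44 h. The summits of the 2 lists thus lay further apart in E93-bound regions, which were also longer. The part of length in this, and at 44 h that of stage, was not tested.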

How the data were processed

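FAIRE-seq lists of E93 mutant and wild-type wings at 3 stages and the E93-GFSTF ChIP-seq list at 24 h APF were used. For each condition the authors deposited 1 peak list, called after pooling 2 mutant, 3 wild-type or 2 ChIP-seq replicates. The submitters' processing notes name Bowtie2 2.2.8, Picard 2.2.4, bedtools 2.25.0, MACS2 and dm3, and their settings are not given in the sources used here. The deposited pileup is a coverage signal, taken where a peak is highest. The deposited fold enrichment is a ratio of that pileup to the background around the peak. Values of −log10 p and −log10 q per peak were also computed by the authors. Pileup was used only to rank peaks within a list, since the lists differ in depth and scaling.

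Peaks sharing 1 bp or more were paired, with scipy 1.17.1, pandas 2.3.3 and numpy 2.4.6 under Python 3.11.15. Bound and unbound wild-type 24 h peaks were compared within 10 classes of pileup rank and standardised to the bound peaks. Intervals of these differences are normal approximations to counting error, and medians have order-statistic intervals. Depth was recovered from the lists assuming a 120 Mb genome and reads extended to 125 bp. The overlap and matching functions were tested on simulated lists. Named regions are the 6 E93 peaks of largest pileup, overall and in each of 3 sets (in neither pupal mutant list, at 44 h only, at 24 h only), and the leading peak in neither list per chromosome. The members, classes and named sets were chosen with earlier results of these data known. Alternatives were a stricter overlap or summit distance, only peaks of −log10 q 10 or more, lists of equal size (22786 peaks), 2L alone, other rankings, and matching by length. The gene table given is on another release, so no gene was assigned. RNA-seq and the genomic DNA control reads were not analysed here, so the local background behind the fold enrichment, −log10 p and −log10 q was taken as deposited. The control reads extend past the coordinates of the peak lists, so both may not be on 1 release, and fold enrichment, −log10 p and −log10 q may rest on shifted control positions outside 2L.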

Additional observations from a re-analysis of the deposited data

Results flagged for a closer look

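At 44 h the contrast between E93-bound and unbound wild-type 24 h peaks at matched rank had opposite directions in the genotypes: the share of bound minus unbound peaks found was 5.84 points in the E93 mutant list and -5.24 points in the wild-type list. With 1 pooled list per genotype the difference between these values was not tested across samples, and its counting interval is given with the gap in the report. The mutant value turned to -2.0 points when an overlap of 50% of both peaks was asked for, while the wild-type value was then -12.4 points.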

How the results depend on the processing

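No paired analysis was possible because the replicates were merged before peaks were called, which also left none to drop. Of 134 alternative shares and differences, 71 stayed within the counting interval of the reported one, 60 lay outside it and 3 had the other sign. The shares of E93 peaks found in the mutant lists at L3, 24 h and 44 h were 39.6%, 52.3% and 46.4% with an overlap of 50% of both peaks, 64.3%, 74.7% and 68.8% with summits at most 250 bp apart, and 62.8%, 75.3% and 63.6% with mutant peaks of −log10 q of at least 10, where 1470 E93 peaks were in no mutant list and 4141 in all 3. With equal list sizes 777 were in none and 5486 in all 3. They were 86.4%, 95.8% and 88.8% for the 2957 E93 peaks of −log10 q of at least 10, 83.2%, 92.8% and 85.6% for the upper 50% of the E93 list, and 78.8%, 88.2% and 81.1% with 1 E93 peak per wild-type peak. With equal list sizes they were 74.2% at L3 and 84.5% at 24 h, on 2L alone 87.4% at 24 h, and with windows around the summit 75.8% at L3. Ranked by fold enrichment, the lowest class stood at 75.7% at 24 h.

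The matched differences are given next for the mutant at 24 h, the mutant at 44 h, the wild type at 44 h, the regions absent at wild-type 44 h, and the gap between genotypes at 44 h, where they lay outside the interval. With an overlap of 50% they were 4.12, -2.0, -12.4 and -3.26 points, and the gap at L3 was -2.22. With summits at most 250 bp apart they were 3.05, 0.597, -10.9 and 2.89 points. With searched peaks of −log10 q 10 or more they were 14.1 for the mutant at 24 h, -9.59 for the wild type, 5.07 for the absent regions and 15.5 for the gap. With equal list sizes they were 7.82 at 24 h, -8.01 for the wild type and 13.2 for the gap. On 2L alone they were 9.94, 7.87, 14.5 for the absent regions and 13.7 for the gap, with 1.69 for the gap at L3. With windows they were 4.44 in the mutant at 44 h and -6.95 in the wild type. With 3 length classes they were 4.67, 1.94 and a gap of 6.63, with 10 length classes 4.03, 0.996, 5.33 for the absent regions and a gap of 6.02, and with windows and 3 length classes 4.86, 1.16, 4.21 for the absent regions and a gap of 6.98. With only E93 peaks of −log10 q of at least 10 as bound they were 6.80, 3.24 and -7.35 in the wild type. Over all E93 peaks the median summit distances were 101 bp at 24 h and 120 bp at 44 h, and with fold enrichment percentiles the change of rank at 24 h was 7.53. The causes of these shifts were not tested. The 10 length classes, the windows with length classes, and all alternatives for the wild type, the absent regions and the gap were chosen after seeing the data.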
